A study of Mus musculus with 22 samples.

Results

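The interferon-stimulated genes examined here are 42 mouse genes chosen by name as known targets of interferon, and matched by symbol. At E18.5, an embryonic stage just before birth, 33 of the 42 were measured among 13750 genes, and at 6 months 41 among 15958 genes. The 33 were all among the 41. Ifit3b, Oas1a, Oas3, Oasl1, Mx1, Ifi27l2a, Zbp1 and Gbp3 had values at 6 months alone, and Psmb9 was matched at neither age.

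RNA was sequenced from epithelial cells of mouse lung in 22 libraries. At E18.5 there were 3 libraries each of lungs homozygous for NANCI-CreERT2:RFP (NANCI), heterozygous for Nkx2.1-GFP (Nkx), heterozygous for both alleles (Double) and NANCI-+/+ (WT). At 6 months there were 3 Nkx, 4 Double and 3 WT libraries. NANCI is a long noncoding RNA transcribed beside Nkx2-1, the gene of a transcription factor that specifies lung epithelium. At E18.5 the cells were enriched by magnetic pulldown for EpCAM, a surface protein of epithelia, and the labels name no further gate. At 6 months they came from flow sorting for EpCAM+ cells that were also CD45- and CD31-, which is meant to leave out leukocytes and endothelial cells. Age and enrichment changed together, so no value was tested between ages. Whether replicates were separate animals is not in the labels, and the p-values then measure no more than the spread among these samples, part of which may be technical. Nkx2-1 itself did not pass in any comparison, with means of 14.83 in NANCI, 14.82 in Nkx and 14.81 in Double libraries, against 14.75 in WT libraries at E18.5, and of 13.86 in Nkx and 14.03 in Double libraries, against 14.37 in WT libraries at 6 months. The extent of the gene that GFP replaces is not known here, so this does not check the labels, and the NANCI transcript was not analysed here. The labels give no sex, and the pattern of Xist and 4 Y-linked genes put 2 of 3 libraries as female in E18.5 Nkx, Double and WT and 0 of 3 in NANCI. At 6 months it put 2 of 3 Nkx, 4 of 4 Double and 1 of 3 WT libraries as female.

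Interferons bind receptors at the cell surface, whose Janus kinases phosphorylate transcription factors such as STAT2. STAT2 acts in a complex with IRF9 that binds the interferon-stimulated response element (ISRE) in the promoters of its targets. The targets include sensors of viral RNA, proteins that bind or cut RNA, the ubiquitin-like protein ISG15 with its protease USP18, and genes of antigen processing. Airway and alveolar epithelial cells are known to respond to interferon, and USP18 also damps the response at the interferon receptor.

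Promoters are printed for the 6 members that passed a test described below and hold the ISRE core. The core was searched as GAAANNGAAA, or TTTCNNTTTC for the other strand, in windows from 250 bases before to 50 bases after the transcription start (RefSeq, GRCm38.p6), read 5′ to 3′ on the strand of the gene. Capitals mark the matches. Ifit3 lies on the plus strand (chr19:34583279-34583578). The other windows are on the minus strand: Rsad2 (chr12:26456403-26456702), Oas1a (chr5:120907476-120907775), Oas3 (chr5:120777610-120777909), Isg15 (chr4:156200769-156201068) and Eif2ak2 (chr17:78882523-78882822).
Ifit3: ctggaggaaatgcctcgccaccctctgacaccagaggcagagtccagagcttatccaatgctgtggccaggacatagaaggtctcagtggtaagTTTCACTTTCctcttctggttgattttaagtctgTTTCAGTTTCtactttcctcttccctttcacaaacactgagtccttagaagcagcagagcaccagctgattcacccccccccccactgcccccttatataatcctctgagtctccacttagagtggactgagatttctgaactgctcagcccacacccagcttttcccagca
Rsad2: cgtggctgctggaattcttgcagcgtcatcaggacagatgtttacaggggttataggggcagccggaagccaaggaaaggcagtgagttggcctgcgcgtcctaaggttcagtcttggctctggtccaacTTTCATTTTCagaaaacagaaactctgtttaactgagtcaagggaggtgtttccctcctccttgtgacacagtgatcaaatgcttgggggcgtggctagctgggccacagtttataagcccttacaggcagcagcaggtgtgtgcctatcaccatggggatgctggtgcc
Oas1a: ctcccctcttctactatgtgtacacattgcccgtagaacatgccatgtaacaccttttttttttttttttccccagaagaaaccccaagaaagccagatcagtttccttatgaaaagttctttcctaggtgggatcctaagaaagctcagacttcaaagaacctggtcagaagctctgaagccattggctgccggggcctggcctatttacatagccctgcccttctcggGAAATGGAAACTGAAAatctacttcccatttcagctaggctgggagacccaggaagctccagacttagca
Oas3: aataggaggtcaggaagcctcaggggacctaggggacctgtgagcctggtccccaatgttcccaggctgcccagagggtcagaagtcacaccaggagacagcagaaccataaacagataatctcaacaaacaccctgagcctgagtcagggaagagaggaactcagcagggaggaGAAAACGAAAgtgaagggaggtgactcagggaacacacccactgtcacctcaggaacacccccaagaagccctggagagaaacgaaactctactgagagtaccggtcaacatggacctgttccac
Isg15: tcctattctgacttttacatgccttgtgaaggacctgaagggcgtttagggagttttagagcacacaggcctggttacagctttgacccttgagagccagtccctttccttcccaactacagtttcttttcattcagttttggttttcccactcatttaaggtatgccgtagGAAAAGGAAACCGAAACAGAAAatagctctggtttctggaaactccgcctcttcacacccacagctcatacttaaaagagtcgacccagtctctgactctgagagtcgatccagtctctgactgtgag
Eif2ak2: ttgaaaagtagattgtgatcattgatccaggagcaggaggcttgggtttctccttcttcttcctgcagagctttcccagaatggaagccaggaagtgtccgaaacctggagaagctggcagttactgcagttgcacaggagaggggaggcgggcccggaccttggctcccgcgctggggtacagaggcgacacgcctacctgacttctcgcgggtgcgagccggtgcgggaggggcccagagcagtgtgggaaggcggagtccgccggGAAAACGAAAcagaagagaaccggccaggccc

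Counted from the first transcribed base as 0, the matches began at −156 and −122 in Ifit3, −120 in Rsad2, −20 and −14 in Oas1a, −75 in Oas3, −78, −72 and −66 in Isg15 and 18 in Eif2ak2. The matches within Oas1a overlap each other, as do those within Isg15. RefSeq windows were found for 32 of the 42 members, 37 in all, and 16 of these windows (43.2%) held the core, against 1131 of all 32851 windows (3.44%). The gamma-activated site core, searched as TTCNNNGAA, was in 8 member windows (21.6%), against 2726 of all windows (8.3%). Of the other members that passed a test, Ifit2, Irf9, Xaf1, Irf7, Isg20, Ifi35, Cmpk2 and Ifi44 had a window without the ISRE core. Usp18, Oas2, Mx1, Mx2, Dhx58, Parp9 and Rtp4 had no window. A match is a description of the letters and not evidence of binding.

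The members also lie together in places (GENCODE M21, GRCm38). Ifit1, Ifit2, Ifit3 and Ifit3b are on chromosome 19, Oas1a, Oas2, Oas3, Oasl1 and Oasl2 on chromosome 5, Mx1 and Mx2 on chromosome 16, and Gbp2, Gbp3 and Gbp7 on chromosome 3. Some members cannot be separated cleanly from a copy or an overlapping gene. Of the 50-base stretches in the longest Ifit3 transcript, 51.2% were also found in Ifit3b, and of those in Oas1a 57.6% were found in Oas1g. Irf7 overlaps Phrf1, Irf9 overlaps Rnf31, Parp9 overlaps Dtx3l, Dhx58 overlaps Dhx58os and Rtp4 overlaps Masp1. Usp18 overlaps Gm44148, Oas2 overlaps Gm43068, Ifi35 overlaps Gm11626, and Eif2ak2 overlaps Gm26637 and n-R5s29. The strandedness of the libraries is not stated in the labels, so these values are uncertain to that extent.

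Values are log2 expression as deposited, with almost the same distribution in every library of an age. The mean over the 12 E18.5 libraries was lowest for Isg15 (3.97) and highest for Trim25 (12.03), a ubiquitin ligase that activates the RNA sensor RIG-I. The median of the 33 member means was 8.4, against 9.88 for all genes, and 9 members lay above the latter. At 6 months Oas3 had the lowest mean (5.71) and Trim25 again the highest (11.37), with a median of 8.87 over 41 members against 9.56 for all genes. The transcript length was not divided out, so these levels rank the members only loosely.

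**Figure D1:**
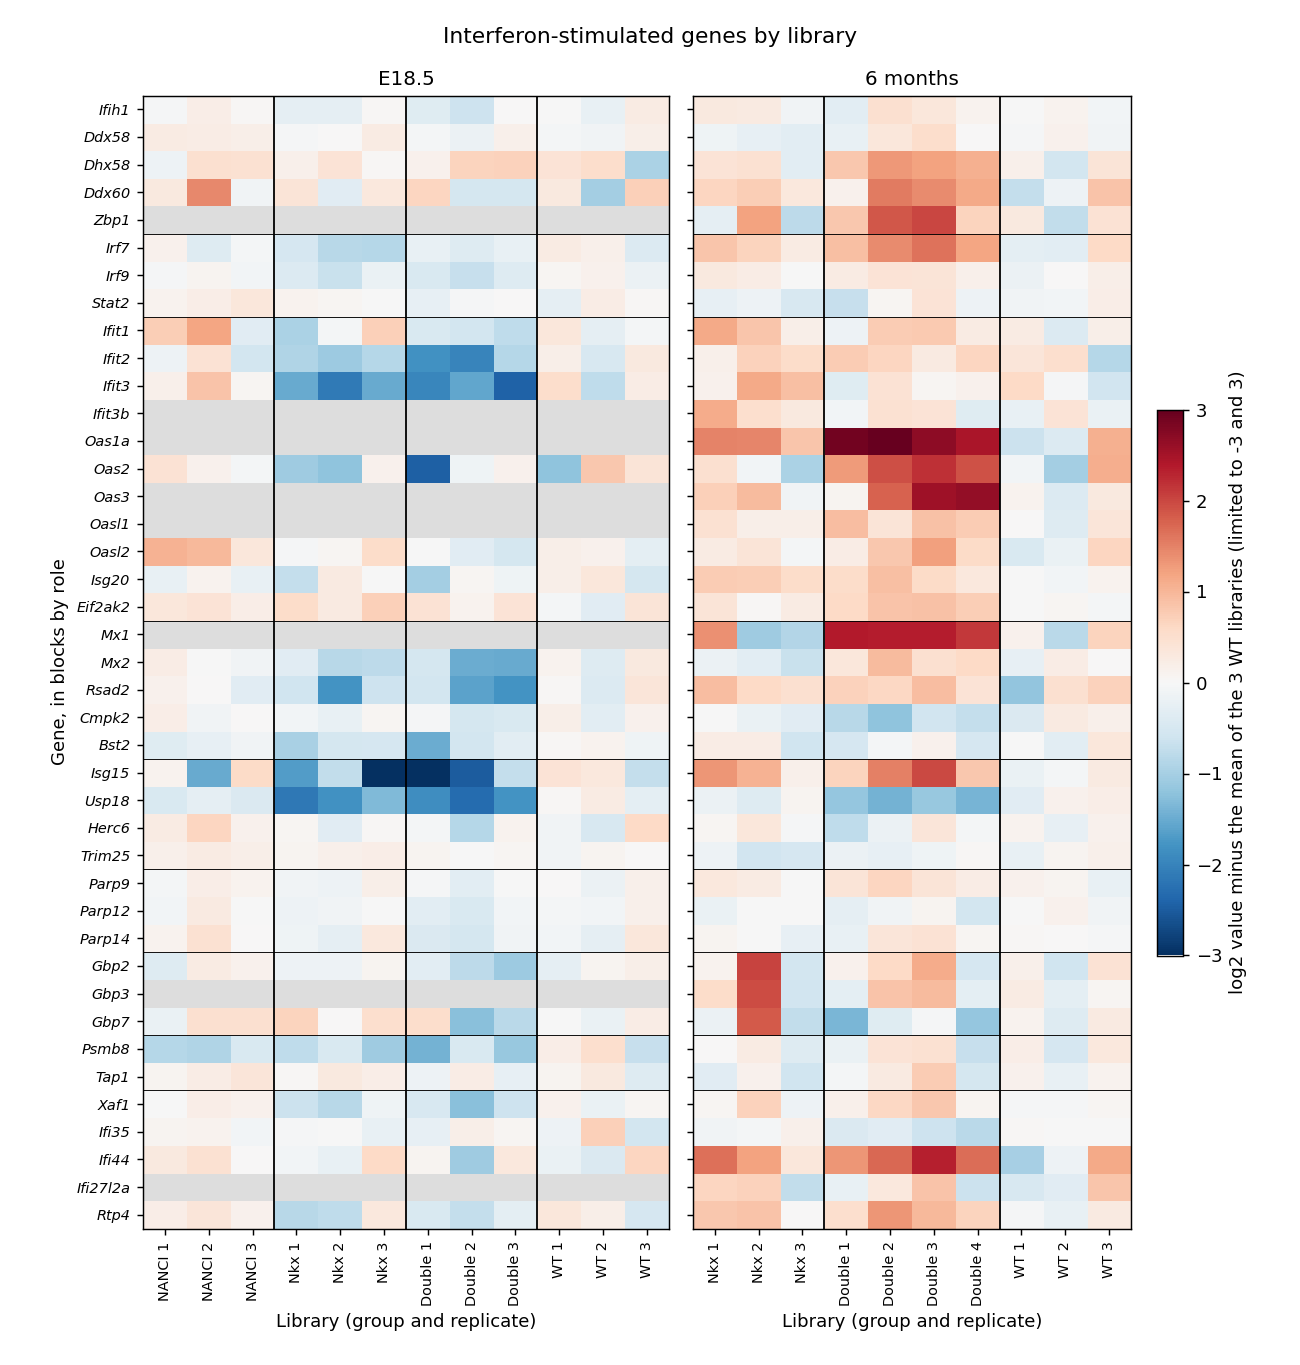
Deposited log2 value of each measured member in each library, minus the mean of the 3 WT libraries of the same age (colour, limited to −3 and 3; grey, not measured), with members in rows by role and libraries in columns by group. Usp18 is blue in the Nkx and Double libraries at E18.5 and in the 4 Double libraries at 6 months, while Oas1a, Oas2 and Mx1 are red in the 6-month Double libraries.

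The first question was whether the homozygous NANCI-CreERT2:RFP allele changed these genes at E18.5. No member passed the test between NANCI and WT, with limma and Benjamini-Hochberg adjustment over all genes at a threshold of 0.05, and the background of genes called was 0%. Of the 33 members 1 had an unadjusted p under the threshold. The members' log2 fold changes ran from −0.74 to 0.79 with a median of 0.11, against 0.01 for all genes, and 23 of 33 were above 0.

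Oasl2, a 2′-5′-oligoadenylate synthetase-like gene, had 8.24, 8.17 and 7.55 in NANCI libraries, against 7.37, 7.33 and 6.9 in WT libraries. The groups did not overlap, and the log2 fold change was 0.79 ± 0.27 (SE; limma adjusted p = 0.978). Psmb8, an immunoproteasome subunit, had 7.28, 7.22 and 7.68 in NANCI libraries, against 8.32, 8.63 and 7.43 in WT libraries, which overlap (−0.74 ± 0.34, limma adjusted p = 0.978). Trim25 had 12.1, 12.19 and 12.11 in NANCI libraries, against 11.82, 12.03 and 11.96 in WT libraries, without overlap (0.2 ± 0.1, limma adjusted p = 0.978). Only Oasl2 and Trim25 had groups that did not overlap, both higher, 2 of 33 members (6.06%) against 2.97% of all genes, and none was lower without overlap, against 3.3%. All 3 NANCI libraries had the male pattern and 2 of the 3 WT libraries the female one.

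The second comparison asked what the Nkx2.1-GFP allele alone did at E18.5. Usp18 and Ifit3 fell in Nkx libraries relative to WT, and none of the 33 members rose. The share of members that fell was 6.06%, against 3.65% of all genes, and none rose against 3.67% of all genes. The members' median log2 fold change was −0.1, against 0.02 for all genes, with 23 of 33 below 0.

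Usp18, the protease that removes ISG15 from proteins, had 8.16, 8.48 and 8.97 in Nkx libraries, against 10.35, 10.56 and 10 in WT libraries. Every Nkx library lay below every WT library. Usp18 was 3.41-fold lower (log2 fold change −1.77 ± 0.23, limma adjusted p = 0.000668). Ifit3, listed among the RNA-binding effectors, had 4.74, 4.15 and 4.76 in Nkx libraries, against 6.79, 5.51 and 6.48 in WT libraries, again without overlap. It was 3.28-fold lower (−1.71 ± 0.42, limma adjusted p = 0.029). Values of Ifit2, listed in the same role, were 9.16, 8.98 and 9.21 in Nkx libraries, against 10.26, 9.6 and 10.36 in WT libraries (−0.96, limma adjusted p = 0.088). Its groups did not overlap, but it missed the threshold.

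Isg15 had the largest difference in size and did not pass. It had 3.52, 4.45 and 1.13 in Nkx libraries, against 5.6, 5.51 and 4.48 in WT libraries (−2.16, limma adjusted p = 0.225). The value of 1.13 is the lowest in its library, so this gene was at the floor of the measurement there. Groups did not overlap for 8 members, all lower in Nkx (24.2%, against 10.4% of all genes): Usp18, Ifit3, Ifit2, Irf9, Rsad2, Irf7, Isg15 and Bst2. With WT replicate 3 left out 5 members fell and 1 rose. With WT replicate 1 or any 1 Nkx library left out 1 fell, and with the female libraries alone none did. The share of all genes called in these fits was not counted.

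Of the 3 comparisons with WT at E18.5, that of Double had the most members that passed. Of 33 members 7 fell and none rose, 21.2% falling against 7.47% of all genes and none rising against 7.13%. Those that fell were the deISGylase gene Usp18, the RNA-binding Ifit2 and Ifit3, the antiviral effectors Mx2 and Rsad2, the transcription factor gene Irf9 and the apoptosis-linked Xaf1. The median log2 fold change of the members was −0.35, against 0.02 for all genes, and 30 of 33 were below 0. Groups did not overlap for 11 members, all lower in Double (33.3%, against 13.3% of all genes).

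Usp18 had 8.44, 7.99 and 8.51 in Double libraries, against 10.35, 10.56 and 10 in WT libraries. Every Double library lay below every WT library, and Usp18 was 3.97-fold lower (log2 fold change −1.99 ± 0.23, limma adjusted p = 0.000163). Ifit2 had 8.26, 8.1 and 9.22 in Double libraries, against 10.26, 9.6 and 10.36 in WT libraries, so Double replicate 3 was closest to WT (−1.55 ± 0.31, limma adjusted p = 0.00604). Its neighbour Ifit3 had 4.31, 4.71 and 3.84 in Double libraries, against 6.79, 5.51 and 6.48 in WT libraries (−1.97 ± 0.42, limma adjusted p = 0.00827). The groups were apart for each of these.

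Irf9, whose protein binds the ISRE together with STAT2, moved less but within a narrow spread. It had 10.89, 10.65 and 10.97 in Double libraries, against 11.4, 11.47 and 11.18 in WT libraries (−0.51 ± 0.15, limma adjusted p = 0.033). Stat2, its partner, had a log2 fold change of −0.1 and Irf7, which induces interferon genes, of −0.28, and neither passed. Mx2, a dynamin-like GTPase, had 5.75, 4.8 and 4.77 in Double libraries, against 6.39, 5.9 and 6.57 in WT libraries (−1.18 ± 0.35, limma adjusted p = 0.0407). Rsad2, which encodes viperin, had 7.1, 6.05 and 5.87 in Double libraries, against 7.7, 7.25 and 8.03 in WT libraries (−1.32 ± 0.4, limma adjusted p = 0.0426). Xaf1, an interferon-induced gene linked to apoptosis, had 8.27, 7.5 and 8.15 in Double libraries, against 8.9, 8.57 and 8.81 in WT libraries (−0.79 ± 0.24, limma adjusted p = 0.0464). In each of these the highest Double library lay below the lowest WT library.

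**Figure D2:**
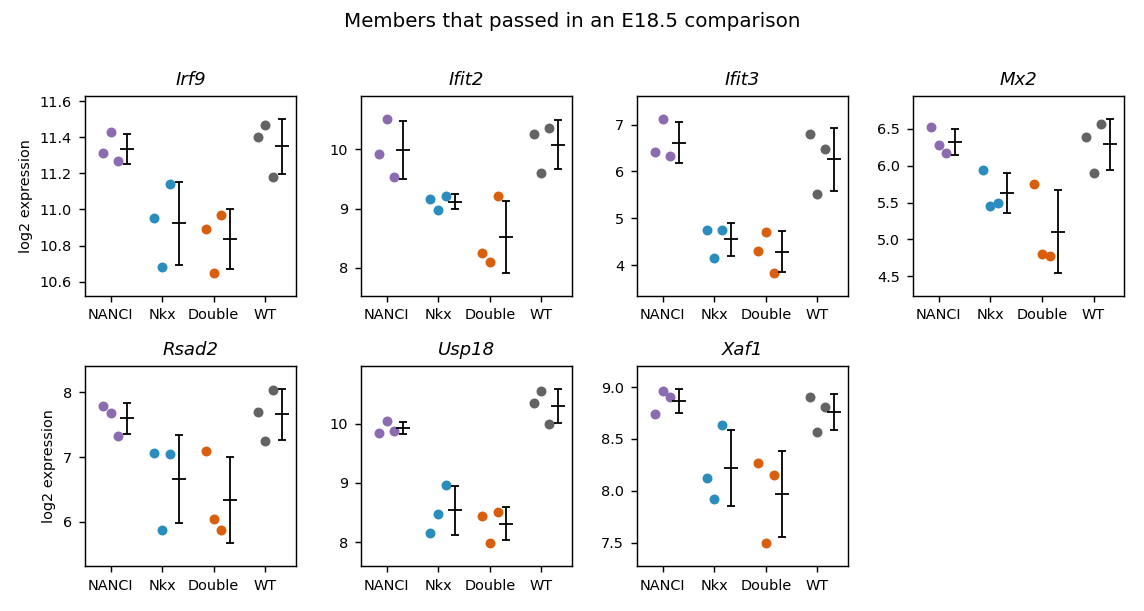
Deposited log2 expression of the 7 members that passed in a comparison at E18.5 (vertical axes, each with its own range), by group; points are the 3 libraries of a group in replicate order and the bars beside them are mean ± SD. Usp18 lies between 7.99 and 8.97 in Nkx and Double libraries and between 9.85 and 10.56 in NANCI and WT libraries.

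By role, 1 of 4 genes of the ISG15 system fell, 1 of 3 transcription factors, 2 of 7 RNA-binding effectors, 2 of 4 other antiviral effectors and 1 of 4 of the remaining members. The share of all genes that fell was 7.47%. None of the measured sensors, PARP genes, guanylate-binding proteins or antigen processing genes passed. Psmb8 had 6.7, 7.67 and 7.0 in Double libraries, against 8.32, 8.63 and 7.43 in WT libraries (−1.0, limma adjusted p = 0.0688). Isg15 again had the largest difference without passing (−2.47, limma adjusted p = 0.12), at 1.0, 2.7 and 4.48 in Double libraries, against 5.6, 5.51 and 4.48 in WT libraries. Its 1.0 in Double replicate 1 is the lowest value of that library. Without WT replicate 1 or without Double replicate 3 the count that fell was 3. Without Double replicate 2 it was 4, and in the female libraries alone it was 0. Here too the share of all genes called was not counted.

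Outside the members, genes of the pathway were counted at E18.5 against the share of all genes. Over 65 measured genes of 4 lists 3 rose in Double against WT (4.62%, against 7.13% of all genes) and 7 fell (10.8%, against 7.47%). Of the lists of 6 measured receptor and interferon genes, 17 signalling genes, 11 sensors and adaptors and 31 other interferon-induced genes, Double against WT gave 0, 0, 1 and 2 that rose and 1, 1, 1 and 4 that fell. Ifngr2, a chain of the interferon gamma receptor, fell (−0.48 ± 0.13, limma adjusted p = 0.029), as did Sp100, a nuclear body gene (−1.69 ± 0.29, limma adjusted p = 0.0021), and Samhd1, a dNTP hydrolase (−1.14 ± 0.19, limma adjusted p = 0.00187). Those that rose were Ikbke (0.98), Ly6e (1.58) and Slfn9 (1.42), and the others that fell were Ifit1bl1 (−1.48), Trim12c (−0.76), Tor3a (−0.63) and Slfn2, which was at the lowest value of 2 Double libraries. Class I antigen presentation had none of 12 that passed, and class II had 2 of 7 that fell, Cd74 (−1.3) and H2-Aa (−1.64). In Nkx against WT the same 4 lists gave none that rose and 1, 1, 1 and 2 that fell (7.69% in all, against 3.65% of all genes), including Ifngr2 (−0.47), Sp100 (−1.22) and Samhd1 (−0.8).

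Leukocyte markers were also lower in Nkx and Double libraries than in WT libraries. Of the 9 measured markers of 14, the mean log2 value was 6.14 to 6.45 in NANCI libraries, 3.75 to 4.9 in Nkx libraries and 3.76 to 4.59 in Double libraries, against 6.84 to 7.17 in WT libraries. 8 of 9 fell in Double and 5 of 9 in Nkx, among them Ptprc, the gene of CD45 (3.9 ± 1.72 in Double and 6.56 ± 0.35 in WT libraries, SD, n = 3 each). Over the 33 members the mean was 8.54 to 8.73 in NANCI libraries, 8.08 to 8.3 in Nkx libraries and 7.84 to 8.07 in Double libraries, against 8.48 to 8.56 in WT libraries. In NANCI libraries the leukocyte means lay below those of WT, and the members' means did not. The leukocyte difference was smaller there, with a median log2 fold change against WT of −0.59 in NANCI, −2.58 in Nkx and −2.77 in Double. Endothelial markers had 6.04 to 7.54 in Double libraries, against 7.31 to 8.09 in WT libraries, with 2 of 6 lower. Mesenchymal markers had 5.67 to 6.03 in Double libraries, against 6.55 to 6.96 in WT libraries, with 3 of 5 lower, 1 higher and a median log2 fold change of −1.52. All 8 type 2 alveolar cell markers fell in Double. Their means were 14.83 to 15.68 in Double libraries and 15.53 to 15.96 in Nkx libraries. In NANCI libraries they were 16.47 to 16.66, and in WT libraries 16.39 to 16.68. The part of these cells in the members' values was not tested, and in bulk RNA fewer cells of a type and less RNA per cell cannot be told apart.

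**Figure D3:**
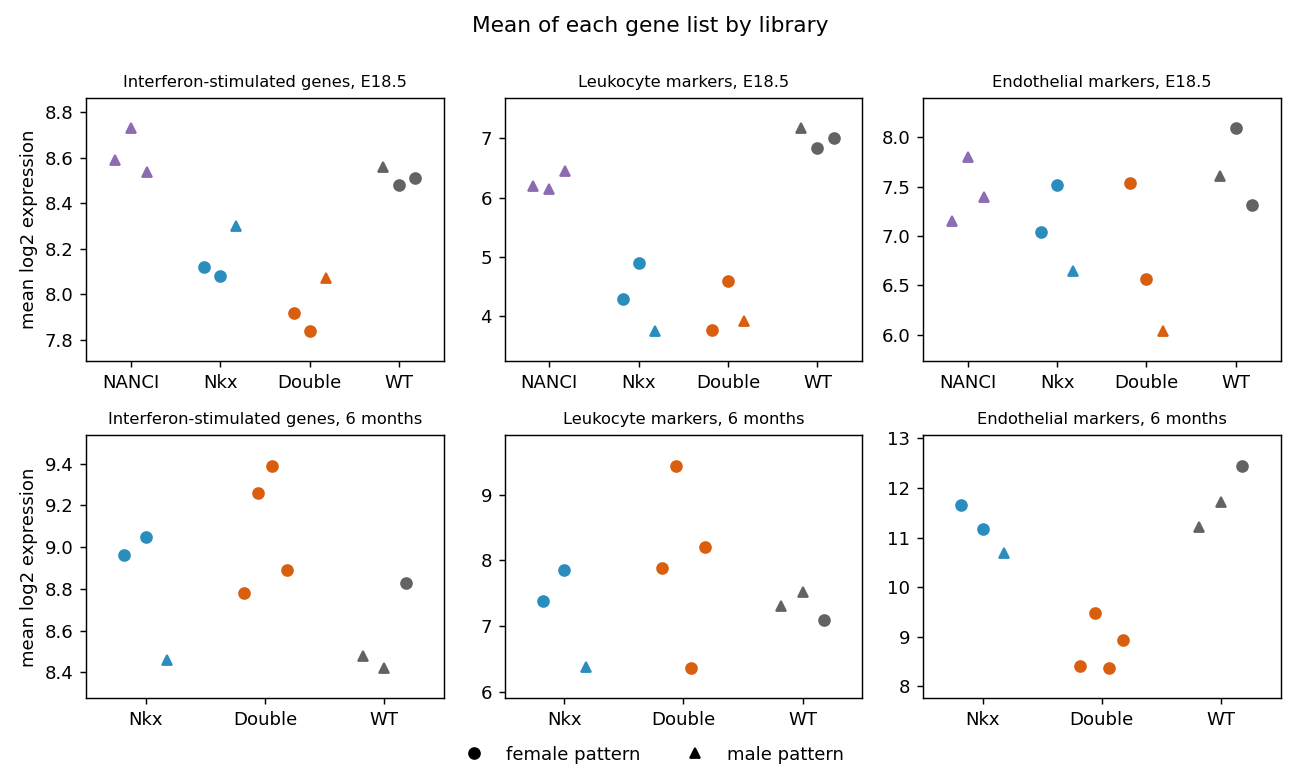
Mean log2 expression of the measured members, leukocyte markers and endothelial markers in each library (vertical axes, each with its own range), at E18.5 (upper row) and 6 months (lower row), by group; circles are libraries with the female and triangles with the male expression pattern. At E18.5 the means of members and of leukocyte markers are both lower in all Nkx and Double libraries than in all NANCI and WT libraries.

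Set directly against Nkx at E18.5, the Double libraries showed no member that passed. 1 of all 13750 genes did (0.00727%), and 2 of the 33 members had an unadjusted p under the threshold. The log2 fold change was below 0 for 30 members, with a median of −0.22 against 0 for all genes. Gbp2, a guanylate-binding protein gene, had 7.31, 6.84 and 6.54 in Double libraries, against 7.49, 7.49 and 7.72 in Nkx libraries, without overlap. Gbp7 of the same family had 8.39, 6.6 and 7.06 in Double libraries, against 8.53, 7.88 and 8.36 in Nkx libraries, with overlap. The log2 fold changes were −0.67 for Gbp2, −0.91 for Gbp7 and −0.59 for Ifit2, each with a limma adjusted p of 1. Groups did not overlap for 1 member higher, Irf7, against 4.7% of all genes, and for 2 lower, Gbp2 and Trim25, against 3.91%. These libraries are shared with the comparisons against WT above.

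At 6 months Nkx libraries differed from WT in 1 member of 41, against 2.63% of all genes. Isg20, a 3′ exonuclease of single-stranded RNA, rose, 2.44% of the members against 1.52% of all genes, and none fell against 1.11%. It had 11.54, 11.53 and 11.33 in Nkx libraries, against 10.76, 10.7 and 10.89 in WT libraries. The lowest Nkx library lay above the highest WT library, and the log2 fold change was 0.68 ± 0.14 (limma adjusted p = 0.0338). Oas1a had 8.58, 8.56 and 7.94 in Nkx libraries, against 6.45, 6.68 and 8.16 in WT libraries, with overlap (1.27 ± 0.39, limma adjusted p = 0.107). Trim25 had 11.39, 10.97 and 11.04 in Nkx libraries, against 11.32, 11.64 and 11.7 in WT libraries (−0.42 ± 0.14, limma adjusted p = 0.134). The median of the 41 members was 0.19, against 0.01 for all genes.

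Single libraries stood out in this comparison. Nkx replicate 3, the one with the male pattern, had the lowest value of its group in 32 of 41 members. WT replicate 3, the one WT library with the female pattern, had the highest in 26 of 41. The 3 guanylate-binding protein genes were high in Nkx replicate 2: Gbp2 had 9.46, 11.37 and 8.81 in Nkx libraries, against 9.51, 8.76 and 9.79 in WT libraries, and Gbp3 had 8.21, 9.63 and 7.09 in Nkx libraries, against 7.9, 7.36 and 7.73 in WT libraries. The call of Isg20 was lost with sex pattern as a covariate and when any 1 library was left out, and without WT replicate 3 Oas1a passed instead (1.8 ± 0.27, limma adjusted p = 0.0102). None of the pathway lists held a gene that passed in this comparison.

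The 6-month Double libraries held the most changes. Against WT 12 of 41 members rose and 3 fell. The 12 were the RNA-binding Oas1a, Oas2, Oas3, Isg20 and Eif2ak2, the GTPase gene Mx1, the sensor Dhx58, the transcription factor gene Irf7, and Isg15, Parp9, Ifi44 and Rtp4. Usp18, Ifi35 and Cmpk2 fell. Members that rose made up 29.3%, against 18.4% of all genes, and those that fell 7.32%, against 17.9%. In both directions together 36.6% of members passed, close to the 36.3% of all genes. The median log2 fold change was 0.41, against 0.06 for all genes. Groups did not overlap for 15 members higher (36.6%, against 21.1% of all genes) and for 3 lower (7.32%, against 18.9%).

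The 2′-5′-oligoadenylate synthetases activate RNase L on binding double-stranded RNA, and Oas1a had the largest change of the 41 members. It had 10, 10.25, 9.77 and 9.55 in Double libraries, against 6.45, 6.68 and 8.16 in WT libraries. All 4 Double libraries were above all WT libraries, and Oas1a was 6.95-fold higher (log2 fold change 2.8 ± 0.37, limma adjusted p = 0.000168). Its near copy Oas1g had 8.41, 8.41, 8.5 and 8.29 in Double libraries, against 5.57, 4.95 and 6.32 in WT libraries (2.79 ± 0.31, limma adjusted p = 5.67e-05). Oas2 had 8.26, 8.93, 9.19 and 8.9 in Double libraries, against 6.91, 5.97 and 8.09 in WT libraries, so the groups were apart but WT replicate 3 came close (1.83 ± 0.47, limma adjusted p = 0.0105). Oas3 had 4.94, 6.61, 7.4 and 7.48 in Double libraries, against 4.95, 4.44 and 5.15 in WT libraries, and Double replicate 1 lay within the WT range (1.76 ± 0.6, limma adjusted p = 0.0393). Oasl1 (0.74, limma adjusted p = 0.0586) and Oasl2 (0.71, limma adjusted p = 0.0674) missed the threshold.

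Eif2ak2, the gene of the RNA-activated kinase PKR, had 10.59, 10.84, 10.87 and 10.72 in Double libraries, against 9.98, 10.04 and 9.93 in WT libraries. The difference was small and the spread narrow (0.78 ± 0.12, limma adjusted p = 0.000426). Isg20 had 11.34, 11.68, 11.35 and 11.09 in Double libraries, against 10.76, 10.7 and 10.89 in WT libraries (0.58 ± 0.13, limma adjusted p = 0.0059). The Ifit genes of the same role did not pass: log2 fold changes were 0.41 for Ifit1, 0.57 for Ifit2, 0.06 for Ifit3 and 0.1 for Ifit3b. Ifit2, which fell in the Double libraries of E18.5, had 8.23, 8.11, 7.74 and 8.12 in those of 6 months, against 7.83, 7.98 and 6.62 in WT libraries. Ifit3, which fell there too, had 7.58, 8.39, 8.02 and 8.07 in Double libraries, against 8.55, 7.92 and 7.38 in WT libraries, and both overlapped between groups.

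Among the genes listed as other antiviral effectors was Mx1, the gene of a dynamin-like GTPase. Mx1 had 8.01, 7.98, 7.97 and 7.75 in Double libraries, against 5.76, 4.82 and 6.28 in WT libraries. The 4 Double libraries lay close together and above all WT libraries (2.31 ± 0.56, limma adjusted p = 0.00728). Cmpk2, a mitochondrial nucleotide kinase gene beside Rsad2, had 8.6, 8.24, 8.86 and 8.72 in Double libraries, against 9.02, 9.72 and 9.59 in WT libraries, and was lower without overlap (−0.84 ± 0.21, limma adjusted p = 0.00843). Mx2 had 7.03, 7.63, 7.16 and 7.28 in Double libraries, against 6.45, 6.91 and 6.7 in WT libraries, without overlap and without passing (0.59, limma adjusted p = 0.116). Rsad2 had 6.61, 6.54, 6.83 and 6.32 in Double libraries, against 4.74, 6.4 and 6.6 in WT libraries (0.66, limma adjusted p = 0.256).

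Within the ISG15 system the modifier and its protease moved apart. Isg15 had 7.54, 8.39, 8.85 and 7.7 in Double libraries, against 6.68, 6.82 and 7.14 in WT libraries (1.24 ± 0.37, limma adjusted p = 0.0205). Usp18 had 8.77, 8.53, 8.81 and 8.54 in Double libraries, against 9.6, 10.07 and 10.14 in WT libraries (−1.27 ± 0.17, limma adjusted p = 0.000215). Neither gene overlapped between groups, Isg15 being higher in every Double library and Usp18 lower. The ligase genes Herc6 (−0.16) and Trim25 (−0.14) did not pass. Trim25 had 11.37, 11.3, 11.42 and 11.58 in Double libraries, against 11.32, 11.64 and 11.7 in WT libraries.

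Irf7, the transcription factor gene that is itself an interferon target, had 9.51, 10.02, 10.23 and 9.78 in Double libraries, against 8.32, 8.29 and 9.2 in WT libraries. It was higher without overlap (1.28 ± 0.25, limma adjusted p = 0.00229), while Irf9 (0.3, limma adjusted p = 0.0834) and Stat2 (−0.1) did not pass. Of 5 sensors 1 rose, where 18.4% of all genes rose. It was Dhx58, the gene of the RIG-I relative LGP2, at 8.23, 8.71, 8.62 and 8.47 in Double libraries, against 7.56, 6.87 and 7.8 in WT libraries (1.1 ± 0.28, limma adjusted p = 0.00973). The genes of RIG-I (Ddx58, 0.16) and MDA5 (Ifih1, 0.15) did not pass, nor did the nucleic acid sensor Zbp1, with 7.87, 8.91, 9.07 and 7.72 in Double libraries, against 7.36, 6.33 and 7.48 in WT libraries (1.33, limma adjusted p = 0.0591).

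Parp9, an ADP-ribosyltransferase family member that pairs with DTX3L, had 10.69, 10.93, 10.67 and 10.52 in Double libraries, against 10.43, 10.37 and 10.08 in WT libraries (0.41 ± 0.14, limma adjusted p = 0.0361). The overlapping Dtx3l rose by a like amount (0.41 ± 0.13, limma adjusted p = 0.0317), and reads of the pair could not be separated by strand. Ifi44, an interferon-induced gene with antiviral activity, had 7.5, 7.91, 8.52 and 7.86 in Double libraries, against 5.19, 6.04 and 7.32 in WT libraries (1.76 ± 0.48, limma adjusted p = 0.0139). Rtp4, a receptor transporter gene, had 9.28, 10.09, 9.75 and 9.44 in Double libraries, against 8.73, 8.54 and 9.05 in WT libraries (0.87 ± 0.25, limma adjusted p = 0.0183). The groups were apart in all 3, with WT replicate 3 the closest WT library for Ifi44 and Rtp4. Ifi35, a leucine zipper gene, had 10.29, 10.39, 10.1 and 9.91 in Double libraries, against 10.76, 10.7 and 10.71 in WT libraries, and was lower without overlap (−0.55 ± 0.13, limma adjusted p = 0.00658). None of the guanylate-binding protein or antigen processing members passed, Psmb8 having a log2 fold change of 0 and Tap1 of 0.11.

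**Figure D4:**
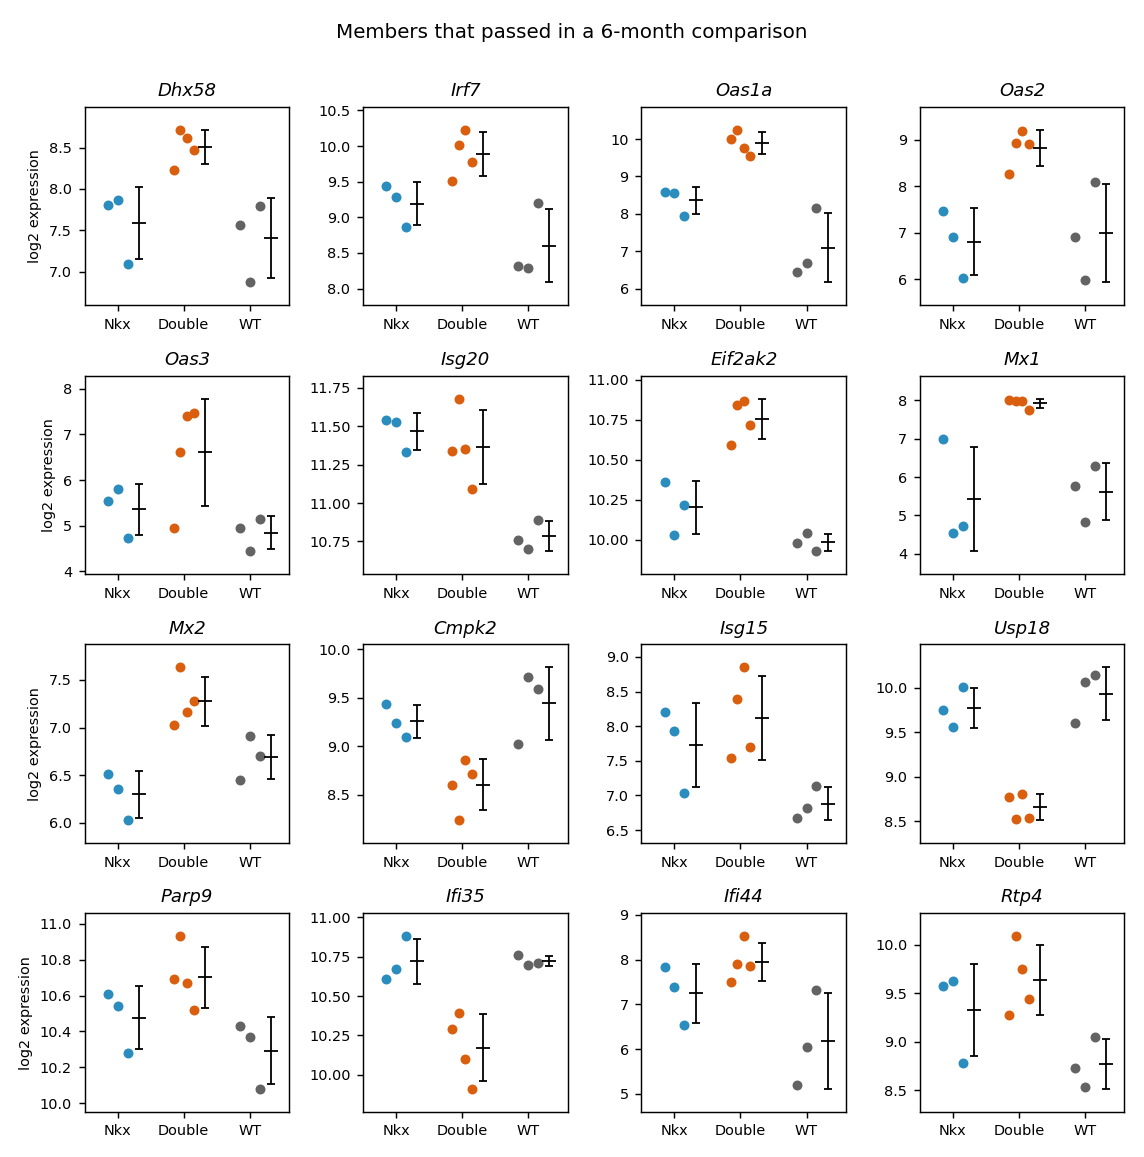
Deposited log2 expression of the 16 members that passed in a comparison at 6 months (vertical axes, each with its own range), by group; points are the 3 Nkx, 4 Double and 3 WT libraries in replicate order and the bars beside them are mean ± SD. Oas1a, Oas2, Mx1 and Eif2ak2 are higher and Usp18, Cmpk2 and Ifi35 lower in every Double library than in every Nkx and WT library.

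Sex pattern and markers of several cell types differed between these groups. All 4 Double libraries had the female pattern, against 1 of 3 WT libraries. With sex pattern as a covariate 4 members rose, 3 of them among the 12 (Oas1a, Eif2ak2 and Irf7), and 3 fell, 2 of them Usp18 and Cmpk2. The share of all genes called with this covariate was not counted. With the female libraries alone, which leave 1 WT library, 3 rose and 1 fell. The 13 leukocyte markers had means of 6.36 to 9.44 in Double libraries, against 7.09 to 7.52 in WT libraries, with 1 marker higher and 1 lower, so the Double libraries lay on both sides of the WT range. Markers of plasmacytoid dendritic cells, strong makers of interferon, had means of 9.19 to 9.4 in Double libraries, against 8.01 to 8.88 in WT libraries over 4 genes, of which Klk1 rose (3.59); the median log2 fold change of the 4 was 0.01, and the list holds Bst2, itself a member. The 8 endothelial markers had means of 8.37 to 9.49 in Double libraries, against 11.22 to 12.45 in WT libraries, all 8 lower, although the gate was CD31-. Of 9 mesenchymal markers 8 were lower, of 8 type 2 cell markers 7 were lower, and of 8 general epithelial markers 5 were higher and 1 lower. The part of these in the members' values was not tested.

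Around the members, 19 of 75 measured genes of the same 4 lists rose in 6-month Double against WT (25.3%, against 18.4% of all genes) and 7 fell (9.33%, against 17.9%). Of these, 2 of 6 receptor and interferon genes rose, Ifngr1 (0.55 ± 0.1, limma adjusted p = 0.00105) and Ifngr2 (0.96 ± 0.19, limma adjusted p = 0.00207). Of 12 sensors and adaptors 5 rose (41.7%), among them Tmem173, the gene of STING (1.19 ± 0.2, limma adjusted p = 0.000755), and Cgas, the cytosolic DNA sensor that signals to it (1.63 ± 0.37, limma adjusted p = 0.00533), and Samhd1 fell (−0.65). Of 19 signalling genes 1 rose, the phosphatase gene Ptpn2 (0.68), and 2 fell, Socs3 (−0.82) and Pias1 (−0.35), both inhibitors of STAT signalling. Of 38 other interferon-induced genes 11 rose (28.9%), with Ifit1bl1 (2.73), Slfn9 (2.41) and Tgtp1 (2.28) the furthest, and 4 fell, Slfn5 (−2.73), Mndal (−2.32), Ifi203 (−1.56) and Tor3a (−0.42). None of 13 class I genes passed, and 6 of 7 class II genes fell, among them Cd74 (−1.16) and H2-Aa (−1.23).

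Set against Nkx at 6 months, the Double libraries had 6 of 41 members that rose (14.6%, against 10.2% of all genes) and 3 that fell (7.32%, against 11.5%). The Nkx values of these genes complete those of Double and WT given above. Oas1a had 8.58, 8.56 and 7.94 in Nkx libraries, below all Double libraries (1.53 ± 0.37, limma adjusted p = 0.012), and Oas2 had 7.46, 6.91 and 6.03 in Nkx libraries, likewise below (2.02 ± 0.47, limma adjusted p = 0.0105). Mx1 had 6.98, 4.55 and 4.73 in Nkx libraries, a wide spread that still lay below Double (2.51 ± 0.56, limma adjusted p = 0.00811), and Mx2 had 6.51, 6.36 and 6.03 in Nkx libraries (0.98 ± 0.27, limma adjusted p = 0.0257). Eif2ak2 had 10.36, 10.03 and 10.22 in Nkx libraries (0.55 ± 0.12, limma adjusted p = 0.00634), and Dhx58 had 7.81, 7.87 and 7.09 in Nkx libraries (0.92 ± 0.28, limma adjusted p = 0.0354). The groups did not overlap for any of these 6. Irf7 was the other member higher without overlap, 7 in all (17.1%, against 16.1% of all genes), and the 3 that fell were the 3 lower without overlap (7.32%, against 15.7%).

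Usp18 had 9.75, 9.56 and 10.01 in Nkx libraries, all above the 4 Double libraries (−1.11 ± 0.17, limma adjusted p = 0.00126). Ifi35 had 10.61, 10.67 and 10.88 in Nkx libraries (−0.55 ± 0.13, limma adjusted p = 0.0115) and Cmpk2 had 9.44, 9.24 and 9.1 in Nkx libraries (−0.65 ± 0.21, limma adjusted p = 0.0424), again with no overlap. Isg20, higher in both genotypes than in WT, did not pass between them (−0.11), and Isg15 had 8.21, 7.93 and 7.04 in Nkx libraries, overlapping Double (0.39, limma adjusted p = 0.488). Without Nkx replicate 3, the male-pattern library that was lowest in 32 members, 3 rose and 1 fell. All 8 endothelial markers were lower in Double libraries than in Nkx libraries here too, with means of 8.37 to 9.49 against 10.69 to 11.65. The Nkx and Double libraries are those of the comparisons with WT, so the 3 comparisons are not independent.

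Usp18 was the one member that fell in Double against WT at both ages. It was 1 of the 7 that fell at E18.5 (14.3%) and 1 of the 3 that fell at 6 months (33.3%). Of all genes 7.47% fell at E18.5 and 17.9% at 6 months. The shares of all genes that fell at both ages, or changed direction between them, were not counted. No member fell at E18.5 and rose at 6 months, and of the 12 that rose at 6 months 9 were measured at E18.5, where none of them passed. At E18.5 Usp18 was also lower in Nkx, at 8.16, 8.48 and 8.97, against 10.35, 10.56 and 10 in WT. At 6 months Nkx had 9.75, 9.56 and 10.01, against 9.6, 10.07 and 10.14 in WT (−0.16, limma adjusted p = 0.641). Whether these effects differed between the ages was not tested.

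**Figure D5:**
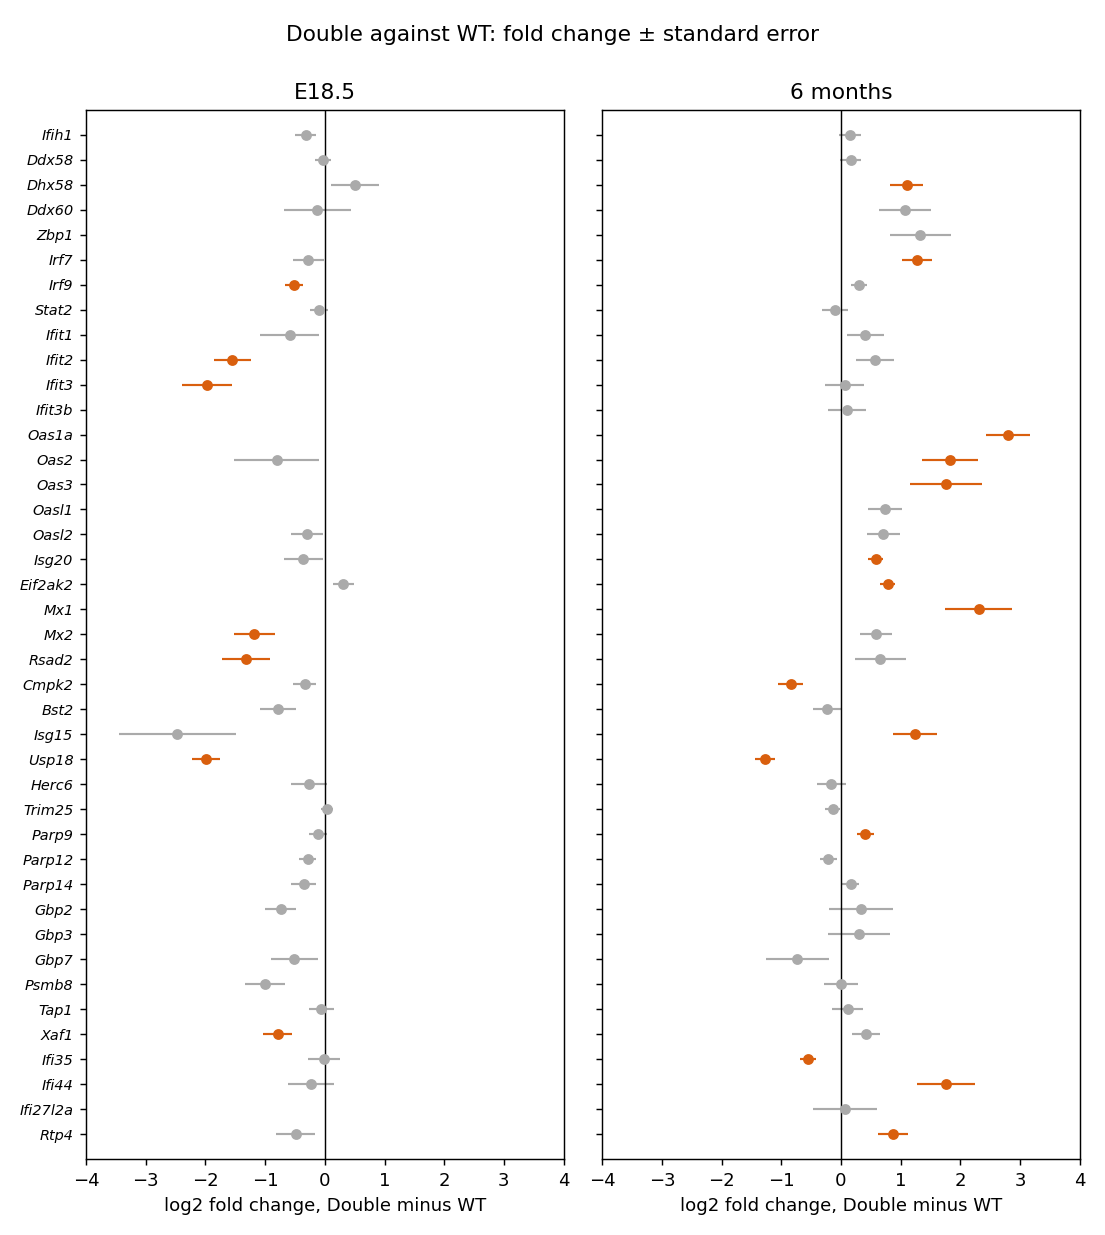
Log2 fold change of Double minus WT for each measured member (horizontal axis; points with bars are the limma estimate ± SE) at E18.5 and 6 months, members by role; orange marks a limma adjusted p under the threshold and grey the rest. At E18.5 all 7 that passed are below 0, and at 6 months 12 are above and 3 below, with Usp18 below 0 at both ages.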

How the data were processed

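The deposited values are log2 expression per Ensembl gene ID and library, as the values themselves show, and within an age all libraries have nearly the same values by rank (median SD 0.00187 at E18.5 and 0.00242 at 6 months), so they were read as quantile-normalized within age. The authors used STAR, limma and mm9, per the submitters' processing notes, which give neither roles nor versions. Read totals are unknown, so no counting interval is given, and the lowest value of a library was read as its floor. Symbols came from GENCODE M21, matched on gene ID for 13638 of 13750 and 15353 of 15958 genes. Coordinates and promoters are GRCm38 and were not converted from mm9.

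Genotypes were compared with limma 3.58.1 in R 4.3.3, in 1 model per age over all libraries with group as the sole factor and a mean-variance trend, and Benjamini-Hochberg adjustment over all genes with a threshold of 0.05. The fit was tested on simulated data. Counts would have been tested with a count model; the files hold log2 values. The members and lists were chosen with earlier results of these data known. Named members are those that passed in any of the 7 comparisons, the 3 with the smallest p-values in each, and the one with the highest mean at each age; any other member named was singled out after its values were seen. Of the pathway lists, genes that passed are named.

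Same-numbered E18.5 Nkx and Double libraries deviated together from their group means over all genes (r = 0.298, 0.504 and 0.18). In no other comparison did every pair exceed 0.1. All main fits were unpaired, that of E18.5 Double against Nkx included. Replicate numbers entered only as an alternative, a block over all libraries of an age. Alternatives were a fit without the trend, of both groups alone, with a minimum mean of 5, and with a replicate block, depth stand-in or sex pattern as a covariate. Others left out each library in turn or, chosen after seeing the data, used libraries of 1 sex pattern. Under these alternatives the calls were counted for members and not for all genes.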

Additional observations from a re-analysis of the deposited data

Results flagged for a closer look

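Mx2 and Xaf1 were flagged by the side of WT on which the Double libraries lay. Every Double library lay below every WT library at E18.5 and above every WT library at 6 months. For Xaf1 the 6-month groups were barely apart, the lowest Double value being 8.31 and the highest WT value 8.3. In all genes, 13.3% were lower without overlap at E18.5 and 21.1% higher without overlap at 6 months. The share of all genes that changed sides in this way was not counted, so the change cannot be read as particular to these members. The log2 fold change of Mx2 in Double against WT was −1.18 at E18.5 and 0.59 at 6 months, and that of Xaf1 was −0.79 at E18.5 and 0.42 at 6 months. The difference between the ages was not tested for either gene, and neither passed at 6 months. In the 6-month Double group, the one group of 4, none of the 41 members had a single library apart by Dixon's criterion, which chance meets in about 5% of groups.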

How the results depend on the processing

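At E18.5 the 2 members that fell in Nkx against WT became 1 with both groups alone or with the depth stand-in, 0 in the female libraries alone (chosen after seeing the data) and 1 to 5 when a library was left out, with 0 to 1 that rose. The 7 that fell in Double against WT became 3 with both groups alone or with the depth stand-in, 0 in the female libraries alone and 3 to 8 when a library was left out, with 0 to 1 that rose. Trim25, which had a log2 fold change of 0.04 there, had −0.03 in the female libraries alone and −0.02 (without WT replicate 1) to 0.08 when a library was left out. At 6 months the 1 member that rose in Nkx against WT became 0 without the trend, with the replicate block, the depth stand-in or the sex covariate, in the female libraries alone, and 0 to 1 when a library was left out. The 12 that rose in Double against WT became 4 with the sex covariate, 3 in the female libraries alone and 8 to 13 when a library was left out, and the 3 that fell became 1 in the female libraries alone. Of Double against Nkx, the 6 that rose became 3 with the replicate block and 3 to 8 when a library was left out, and the 3 that fell became 1 with the block, 1 in the female libraries alone and 1 to 3 when a library was left out. The cause of these shifts was not tested, except that leaving out libraries or using 1 sex pattern leaves fewer samples. The share of all genes called under each alternative was not counted. The shifts therefore cannot be read as particular to the members.

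The replicate block, in which same-numbered libraries are treated as pairs, changed no call of a member in E18.5 Double against Nkx, where none passed with or without it (0 in each direction). In the other comparisons the libraries share only a number. There the block gave 2 that fell in E18.5 Nkx, 7 in E18.5 Double and 11 that rose and 3 that fell in 6-month Double against WT.

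Of 34 passing fold changes of named members, 6 passed under every alternative run: Usp18, Oas1a and Eif2ak2 in 6-month Double against WT, and Usp18, Mx1 and Eif2ak2 in 6-month Double against Nkx. Of 650 comparisons of a named fold change with an alternative, 519 kept direction and side of the threshold, 128 lost the call, 1 gained it and 2, both of Trim25, changed sign. Read depth is unknown, and Isg15 at E18.5, with 2 libraries at their floor, is limited most.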
